A study of Mus musculus with 26 samples.

Results

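The MEIS, PBX, PKNOX and TGIF proteins are homeodomain transcription factors of the TALE class, and 9 of their genes (Meis1, Meis2, Meis3, Pbx2, Pbx3, Pbx4, Pknox1, Pknox2 and Tgif1) were followed in fetal mouse gonads. They were chosen by symbol as members of these families. The rule made no use of their levels, but the choice was made with earlier results of these data known. The count table of the Meis1 knockout holds 31053 genes and that of the Fgf9 deletions 57186. All 9 had enough reads to be tested in both tables. The samples were E13.5 XY gonads, dissected free of the mesonephros, and poly(A) RNA was sequenced in 26 libraries. They fall into 6 groups: wild type (WT, 3 libraries), Meis1 KO (4), and 4 genotypes named as deletions of Fgf9, Δ306 (3), Δ225 (6), Δ104 (4) and Δ93 (6). The labels give neither the Meis1 allele and the exons it removes, nor the ends of the Fgf9 deletions, nor strain, litter or pooling of embryos, so a p-value here measures the spread between these samples.

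TALE homeodomains carry extra residues in the loop between their helices, and the proteins bind DNA together. MEIS and PKNOX proteins pair with PBX proteins through their amino-terminal regions, and the pairs, often with a HOX protein, sit on composite DNA sites. MEIS1 is best known from blood stem cells and leukaemia and from limb, eye and heart development. TGIF proteins do not pair with PBX in this way and act as corepressors in TGF-β and retinoic acid signalling. Fgf9 encodes a secreted growth factor that supports Sertoli cell differentiation in the fetal testis. The question put to the knockout was whether the other family members change in level when Meis1 is lost.

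The likeness of the MEIS genes bears on how far reads can be told apart between them, so 150 coding bases of each are shown. The stretch lies in the homeobox and encodes the DNA-contacting helix, and was read 5′ to 3′ from the GENCODE M21 transcripts (GRCm38). Capitals mark the bases of Meis2 and Meis3 that differ from Meis1.
Meis1: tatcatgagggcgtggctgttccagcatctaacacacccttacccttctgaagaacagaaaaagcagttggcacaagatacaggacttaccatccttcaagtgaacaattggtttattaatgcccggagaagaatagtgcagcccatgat
Meis2: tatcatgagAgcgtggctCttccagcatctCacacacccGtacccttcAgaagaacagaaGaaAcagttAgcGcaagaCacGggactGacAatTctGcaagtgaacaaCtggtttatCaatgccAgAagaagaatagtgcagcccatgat
Meis3: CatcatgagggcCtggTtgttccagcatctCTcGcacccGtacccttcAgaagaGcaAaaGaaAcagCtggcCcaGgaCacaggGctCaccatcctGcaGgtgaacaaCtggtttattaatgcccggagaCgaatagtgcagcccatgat
Meis2 differed from Meis1 at 19 of these 150 bases and Meis3 at 22. Over the whole coding sequence, Meis1 was identical to Meis2 at 77.4% of aligned bases and to Meis3 at 73.7%. The longest uninterrupted run shared with Meis1 was 23 bases in Meis2 and 21 in Meis3. Meis2 and Meis3 shared a run of 28 bases, and the longest run within the PBX members was 20 bases, between Pbx2 and Pbx4. Read length is not given in the sources used here, and sharing of reads between paralogues was not tested.

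The libraries differed in ways the groups do not name. Totals were 35.47 to 51.73 M counts in the Meis1 table and 11.58 to 53.39 M in the table of all deletions. The share of mitochondrial counts was 0.83% to 1.79% in WT and 2.23% to 3.29% in Δ306, Δ104 and Δ93. In Δ225 it reached 5.48% in replicate 2 and 11.6% in replicate 1, which also had the fewest counts. WT replicate 1 stood apart: 5 germ cell markers (Ddx4, Dazl, Pou5f1, Dppa3 and Mael) summed to 16.4 CPM in it (CPM, counts scaled to a library total of 1 M), and to 552.9 and 823.2 CPM in the other WT libraries of the Meis1 table. The 7 Sertoli markers summed to 2546 to 3010 CPM in WT and 1966 to 2444 CPM in Meis1 KO, with 0 of 7 called. The mean of Amh was 1547 CPM in WT and 1130 CPM in Meis1 KO, while Gata4 and Cst9 had higher means in Meis1 KO. The 6 mesonephric markers summed to at most 30.67 CPM in either group of the Meis1 table. No marker on any list was without counts in a whole group. Fgf9 itself was at 9.53 ± 0.32 CPM in WT (SD, n = 3), 2.48 ± 0.41 in Δ306 (n = 3), 3.08 ± 0.86 in Δ93 (n = 6), 4.85 ± 1.76 in Δ104 (n = 4) and 7.01 ± 4.73 in Δ225 (n = 6). The library labelled Δ225 replicate 3 goes against its group in this: it had 16.49 CPM of Fgf9, above every WT library (9.21 to 9.85), and the other Δ225 libraries had 3.69 to 6.36 CPM. Without it, Pknox2, Tgif1, Pbx2 and Pbx3 kept each call made for Δ225 against Δ93 or Δ306. The same WT libraries serve both experiments, so the comparisons with WT are not independent of each other. The processing notes also set WT and Δ306 apart from Meis1 KO, Δ225, Δ104 and Δ93, the later samples. Where a later group is compared with WT or Δ306, this difference and genotype cannot be told apart.

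Levels of different genes were compared per length, as CPM per kilobase of exon, in the 3 WT libraries of the Meis1 table. Pbx2 was highest, at 43.8 ± 1.55 CPM per kb (SD, n = 3), followed by Tgif1 at 14.1 ± 1.08 and Pknox2 at 9.57 ± 0.85. Pknox1 was at 7.60 ± 0.25, Meis1 at 7.44 ± 2.51, Meis2 at 6.66 ± 1.80, Pbx3 at 5.63 ± 0.34 and Meis3 at 5.28 ± 1.43. The neighbours among these 5 genes differed by less than the spread between libraries. Pbx4, known from spermatocytes of the adult testis, was far below the rest at 0.39 ± 0.075 CPM per kb, with 32 to 35 reads in each WT library. The MEIS family was thus spread over all of its members: Meis1 made up 38.1% of the summed MEIS level per length in WT, Meis2 34.5% and Meis3 27.35%. In the table of all deletions the same WT libraries gave 34.7%, 36.2% and 29.1%. The order of Meis1 and Meis2 was thus not settled. The shares rest on exon lengths of 10.532, 12.043 and 3.173 kb. In CPM not scaled to length, the WT mean of Meis3 was 16.74, against 78.37 for Meis1 and 80.16 for Meis2.

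Meis1 (ENSMUSG00000020160, chromosome 11, 18879817 to 19018985, minus strand, GRCm38) checked the labels of the knockout. WT replicates 1 to 3 had 108.9, 62.06 and 64.15 CPM, and Meis1 KO replicates 1 to 4 had 0.20, 0.70, 0.36 and 0.49 CPM. Between 9 and 29 reads remained in each KO library, against at least 2291 in each WT library, and the groups lay far apart. Meis1 fell by 7.49 on the log2 scale (SE 0.35, 95% interval −8.31 to −6.69, adjusted p 1.79e-04 by edgeR), a 179-fold lower level. In all, 303 of 16791 genes were called, which is 1.80%, at an adjusted p under 0.05.

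None of the 8 paralogues was called with Meis1 lost, so Meis1 was the only one of the 9 members that passed the test. By unadjusted p under 0.05 there were 3 members, namely Meis1, Pbx3 and Pknox1, and DESeq2 called only Meis1. The median absolute log2 fold change was 0.093 over the 8 paralogues and 0.17 over all genes tested. The same 3 members had groups that did not overlap, beside 19.7% of all genes tested. Of the alternatives tried, 14 for each member, none gave a call for a paralogue. Without WT replicate 1 the number of genes called in the whole table went from 303 to 2204, and leaving out any other library brought it to between 15 and 27, so the calls over all genes depend on single libraries.

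**Figure D1:**
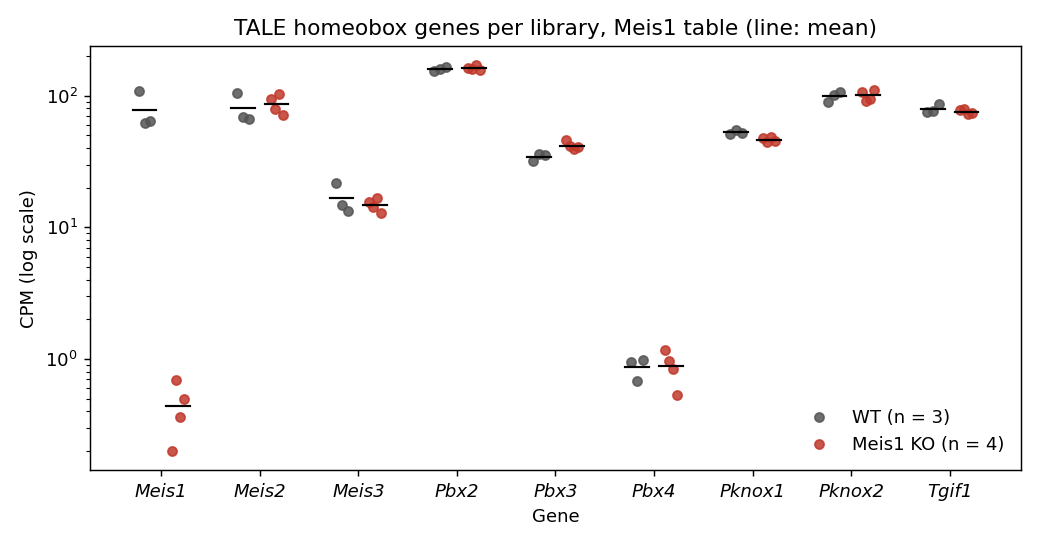
Level of each gene in each library of the Meis1 table in CPM (log axis), with WT in grey (n = 3), Meis1 KO in red (n = 4) and a line at each mean. Meis1 drops from at least 62.06 CPM to at most 0.70 CPM, while the points of the other genes lie close together.

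Meis2 (ENSMUSG00000027210, chromosome 2, 115863064 to 116065839, minus strand), the closest paralogue, encodes a factor with roles in neural crest and limb. It was at 105.1, 68.37 and 67.01 CPM in WT and at 93.59, 79.04, 103.3 and 70.83 CPM in Meis1 KO. The KO libraries all lay within the WT range. The log2 difference was 0.11 (SE 0.19, adjusted p 0.804), and its 95% interval ran from −0.32 to 0.54. Without WT replicate 1, the highest WT library, it was 0.36 (adjusted p 0.116). Meis3 (ENSMUSG00000041420, chromosome 7, 16175090 to 16186504, plus strand), a MEIS gene known from hindbrain patterning, was at 21.91, 14.92 and 13.39 CPM in WT and 15.55, 14.2, 16.76 and 12.86 CPM in Meis1 KO. These groups overlapped as well. The difference was −0.17 (SE 0.18, 95% interval −0.58 to 0.23, adjusted p 0.658), and 0.072 without WT replicate 1.

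Summed over the family, the MEIS level per length was 25.98, 16.27 and 15.87 CPM per kb in WT and 12.69, 11.1, 13.9 and 9.98 CPM per kb in Meis1 KO. The means were 19.4 ± 5.73 (SD, n = 3) and 11.9 ± 1.73 (n = 4), and the groups did not overlap. Meis2 and Meis3 alone summed to 15.64, 10.38 and 9.78 CPM per kb in WT and to 12.67, 11.04, 13.86 and 9.94 CPM per kb in Meis1 KO, where the groups overlapped. Meis1 alone had a WT mean of 7.44 CPM per kb. In Meis1 KO the remaining MEIS RNA was 60.3% Meis2 and 39.4% Meis3 per length, and Meis1 was 0.37%.

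**Figure D2:**
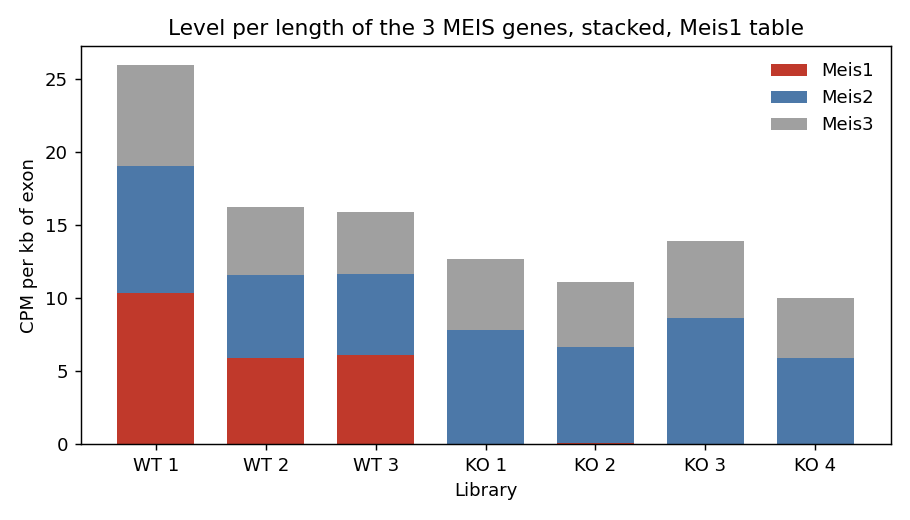
Stacked bars of the level of Meis1 (red), Meis2 (blue) and Meis3 (grey) in CPM per kilobase of exon, 1 bar for each WT and Meis1 KO library. The red part is missing in the KO bars, and the blue and grey parts together reach 9.94 to 13.86 CPM per kb there, against 9.78 to 15.64 in WT.

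Among the PBX members, the partners that MEIS and PKNOX proteins share, Pbx3 was nearest to a call. Pbx3 (ENSMUSG00000038718, chromosome 2, 34171457 to 34373142, minus strand) is known from the brainstem circuits that control breathing. It was at 31.99, 35.88 and 35.23 CPM in WT and at 46.15, 41.48, 39.24 and 40.52 CPM in Meis1 KO. Every KO library was above every WT library. The difference was 0.28 (SE 0.084, 95% interval 0.090 to 0.48), but the adjusted p was 0.126. Pbx2 (ENSMUSG00000034673, chromosome 17, 34591266 to 34597400, plus strand), a broadly expressed PBX gene, stood at 153.2, 160.9 and 164.2 CPM in WT and 163.2, 158.3, 170.4 and 155.6 CPM in Meis1 KO. Its interval was the narrowest of the PBX genes, from −0.12 to 0.17 around a difference of 0.022 (SE 0.064, adjusted p 0.895). Pbx4 (ENSMUSG00000031860, chromosome 8, 69832491 to 69872292, plus strand) ranged from 0.68 to 0.98 CPM in WT and from 0.54 to 1.18 CPM in Meis1 KO. At 25 to 53 reads per library its interval was wide, −0.70 to 0.75 (adjusted p 0.978).

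Pknox1 (ENSMUSG00000006705, chromosome 17, 31564734 to 31607693, plus strand), also called Prep1, is a widely expressed partner of PBX that competes with MEIS for it. It was at 51.5, 54.66 and 51.89 CPM in WT and at 47.53, 44.51, 48.26 and 45.35 CPM in Meis1 KO. Here every KO library was below every WT library. The difference was −0.18 (SE 0.065, 95% interval −0.33 to −0.034, adjusted p 0.176). Pknox2 (ENSMUSG00000035934, chromosome 9, 36890982 to 37147407, minus strand), the second PKNOX gene, was at 89.2, 101.2 and 106.3 CPM in WT and 107.3, 90.47, 95.19 and 110.5 CPM in Meis1 KO, with overlapping groups (difference 0.028, 95% interval −0.19 to 0.25, adjusted p 0.91). Tgif1 (ENSMUSG00000047407, chromosome 17, 70844205 to 70853546, minus strand), the corepressor, was at 75.85, 76.19 and 86.5 CPM in WT and at 77.52, 78.75, 72.23 and 73.75 CPM in Meis1 KO. The Tgif1 groups overlapped too, with a difference of −0.073 (95% interval −0.24 to 0.094, adjusted p 0.645). For these 3 genes the intervals lay between −0.33 and 0.25, while for Meis2, Meis3 and Pbx4 they reached further.

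Markers of other cells were set beside these values. The 6 interstitial stroma markers (Pdgfra, Nr2f2, Tcf21, Gli1, Ptch1 and Dcn) summed to 1676 to 1787 CPM in Meis1 KO and 1535 to 1799 CPM in WT, and none was called. The 5 blood markers had a lower sum, at 511.2 to 767.5 CPM in Meis1 KO against 999.2 to 1310 CPM in WT, with 2 of 5 called. Hba-a1 made up most of this, with means of 412 CPM in Meis1 KO and 822.3 CPM in WT. Hba-a2 (144.6 against 148.7 CPM) and Hbb-bt (89.46 against 88.92 CPM) hardly differed. In the deletion table the same WT libraries had a mean of 4377 CPM of Hba-a1, so its level depends on the counting. Of the pre-granulosa markers, 1 of 5 was called higher. The part of these lists in the Pbx3 and Pknox1 values was not tested. In whole gonads, fewer cells of a type and less RNA per cell cannot be told apart, here or in the deletions. Among 10 other genes of the TALE class or bound to it (the 6 Irx genes, Mkx, Pbxip1 and others), 9 were tested and 0 called in Meis1 KO (median log2 fold change −0.060). Of 10 HOX genes of paralogue groups 9 to 11, whose proteins bind DNA beside MEIS, 0 were called (median −0.23). The median over all genes tested was 0.0033.

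In the Fgf9 deletions, Meis1 was not called and other members were. Of the 9 members, 3 were called in Δ93 against WT (Pknox2 and Tgif1 lower, Pbx3 higher), where 14.1% of all genes tested were called. In Δ306, Pknox2 alone was called, beside 6.43% of all genes. In Δ225 and in Δ104 edgeR called 0 of 9 members, beside 0.209% and 0.0610% of all genes. At an unadjusted p under 0.05 there was 1 member in Δ225 and 2 in Δ104, and DESeq2 called 1 in Δ225 and 0 in Δ104. Groups did not overlap for 5 members in Δ306, where 37.6% of all genes did not overlap, and for 5 in Δ93, beside 24.7%. For Δ225 this held for 1 member (10.1% of all genes), Pbx2, and for Δ104 for 1 member (18.1%), Pknox2. These shares are the background for the members' counts, and they are high in Δ306 and Δ93.

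**Figure D3:**
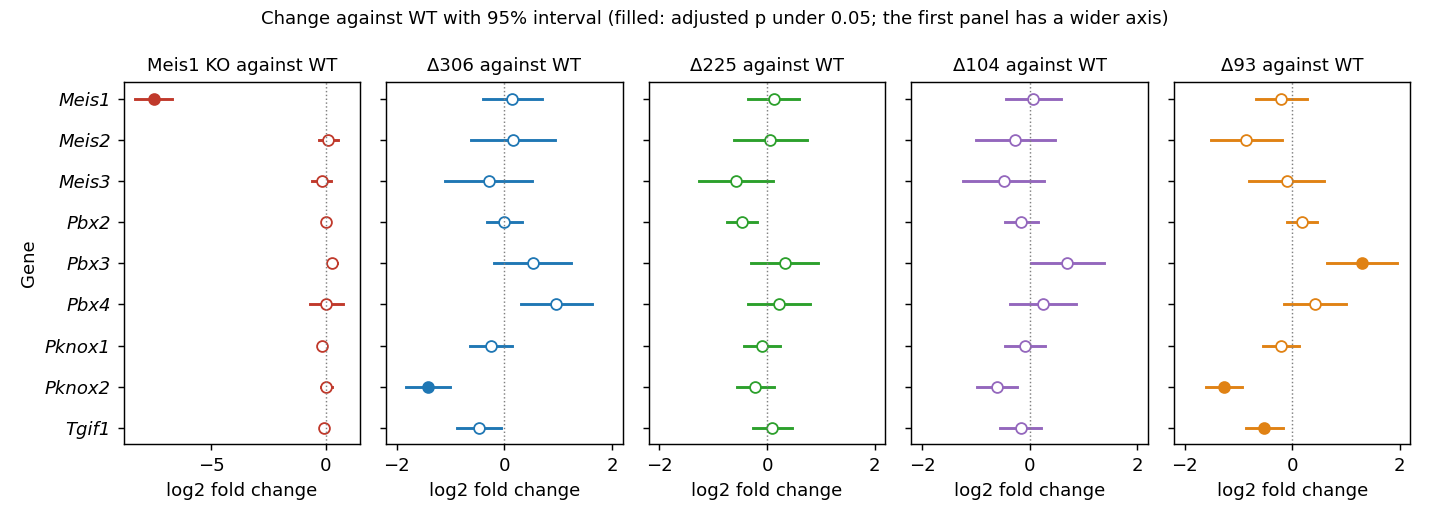
Log2 fold change of each gene against WT with its 95% interval, in 1 panel for Meis1 KO (which has a wider axis) and 1 for each deletion. Filled points mark an adjusted p under 0.05: Meis1 in Meis1 KO, Pknox2 in Δ306, and Pbx3, Pknox2 and Tgif1 in Δ93.

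Pknox2 had the lowest adjusted p of the 9 members in Δ306 and in Δ93. It was at 83.22, 94.07 and 100.8 CPM in WT and at 35.98, 35.39 and 32.07 CPM in Δ306. In Δ93 it was at 40.03, 38.67, 41.28, 30.86, 43.45 and 38.38 CPM. Neither group overlapped with WT. Pknox2 fell by 1.43 on the log2 scale in Δ306 (SE 0.20, adjusted p 0.00122) and by 1.26 in Δ93 (SE 0.16, adjusted p 2.79e-04), and both calls were made in every alternative tried. Δ225 stayed near WT, at 67.52 to 89.66 CPM (median 78.96), with a difference of −0.22 (95% interval −0.56 to 0.12, adjusted p 0.492). Set against each other, Δ225 was higher than Δ93 by 1.04 (SE 0.14, adjusted p 5.51e-05) and higher than Δ306 by 1.21 (SE 0.18, adjusted p 4.05e-04), again in every alternative. Δ104 lay between these groups and was uneven, with 38.24, 59.61, 81.98 and 64.26 CPM in replicates 1 to 4. All 4 were below the lowest WT library. Its difference from WT was −0.60 (SE 0.18, adjusted p 0.145), from Δ306 0.82 (adjusted p 0.0806), and Δ93 differed from it by −0.65 (adjusted p 0.0879). Without Δ104 replicate 1 these last became 0.98 (adjusted p 0.00269) and −0.80 (adjusted p 0.0015).

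Cell type marker sums also differed between these groups. The sum of the 6 stroma markers was 1401 to 1633 CPM in WT and 1360 to 1544 CPM in Δ225, but 517.8 to 836 CPM in Δ306 and 538.5 to 703.8 CPM in Δ93, where 3 of 6 and 5 of 6 were called lower. Δ104 replicate 1, which had the least Pknox2 of its group, had a stroma sum of 464.4 CPM, and the other Δ104 libraries had 1038 to 1608 CPM. The 5 fetal Leydig markers summed to 901.9 to 1554 CPM in WT, 39.77 to 91.31 CPM in Δ306 and 50.09 to 313.9 CPM in Δ93. The 5 pre-granulosa markers (Foxl2, Fst, Wnt4, Rspo1 and Bmp2) went the other way, from 62.14 to 107 CPM in WT to 307.9 to 593.1 CPM in Δ306 and 358.9 to 891.1 CPM in Δ93. The 6 mesonephric markers summed to 13.75 to 26.5 CPM in WT, 30.78 to 58.5 CPM in Δ306 and 30.75 to 58.31 CPM in Δ93. Of the mesonephric markers, 0 were called in Δ306, and in Δ93 1 was called higher and 1 lower. The 7 Sertoli markers summed to 2343 to 2775 CPM in WT, 305.5 to 773.2 CPM in Δ306 and 331.1 to 1240 CPM in Δ93. Of these markers, 0 of 7 were called in Δ306 and 1 of 7 was called lower in Δ93. Amh made up much of the sum, with means of 1448 CPM in WT, 103.4 in Δ306 and 91.53 in Δ93, and was not called. In Δ225 the Sertoli sum was also low in replicates 1 to 3, at 682.1, 1105 and 948.6 CPM, where Pknox2 was at 89.66, 73.25 and 67.52 CPM, and it was 2076 to 2539 CPM in the others. The part of these lists in the Pknox2 result was not tested.

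Tgif1 differed from WT in the same direction in these deletions, and by less. It was at 70.54, 70.99 and 80.92 CPM in WT, 53.4, 61.48 and 45.11 CPM in Δ306, and 61.53, 45.79, 59.45, 38.02, 44.3 and 62.01 CPM in Δ93. Neither deletion overlapped with WT. The decrease was called in Δ93 (−0.52, SE 0.17, adjusted p 0.0437), but 10 of 16 alternatives lost that call, among them leaving out any WT library or Δ93 replicate 2, 4 or 5 (adjusted p up to 0.145). In Δ306 the difference was −0.48 (SE 0.20, adjusted p 0.155). Δ225 was at 69.7 to 87.04 CPM (median 79.12), which was higher than Δ93 by 0.62 (SE 0.14, adjusted p 0.00364) in every alternative. It was higher than Δ306 by 0.58 (SE 0.17, adjusted p 0.0331), a call that 8 of 17 alternatives lost, with an adjusted p of up to 0.162 without Δ306 replicate 1 or 3 or Δ225 replicate 2. In Δ104, Tgif1 was at 46.96 CPM in replicate 1 and 62.76 to 78.81 CPM in the others, and the difference from WT was −0.16 (adjusted p 0.672).

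Pbx3 went in the other direction. It was at 30.02, 33.84 and 33.71 CPM in WT and at 47.62, 90, 49.58, 147.8, 95.05 and 49.81 CPM in Δ93. All 6 Δ93 libraries were above WT, but they differed widely among themselves, with 3 near 50 CPM and 3 at 90 CPM or more. Pbx3 rose by 1.298 on the log2 scale (SE 0.31, adjusted p 0.00913), which missed the threshold without WT replicate 1 (1.25, adjusted p 0.0558). Δ306 was even, at 47.04, 45 and 48.32 CPM, above every WT library. Its difference of 0.52 (SE 0.34, adjusted p 0.395) was not called in the fit that shares the spread of all groups. It was called when only WT and Δ306 were fitted (0.54, adjusted p 0.0125). In Δ225, Pbx3 was at 33.37 to 57.07 CPM (median 38.93), lower than in Δ93 by 0.97 log2 units (SE 0.24, adjusted p 0.0075) in every alternative. In Δ104 it was at 68.14, 60.16, 49.65 and 33.42 CPM (difference from WT 0.70, adjusted p 0.302).

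Pbx2 had its lowest group mean in Δ225. It was at 141.7, 149.5 and 154.6 CPM in WT and at 77.66, 101.8, 114.4, 120.2, 113.5 and 119.1 CPM in Δ225. No Δ225 library reached the WT range. The difference of −0.46 (SE 0.13, adjusted p 0.14) was not called by edgeR and had an adjusted p of 0.037 by DESeq2. Δ93 was at 134.4 to 194.6 CPM (median 172.6), and Δ225 was lower than Δ93 by 0.65 log2 units (SE 0.11, adjusted p 4.51e-04) in every alternative. Δ225 was also lower than Δ306, at 151.8, 134.8 and 157.6 CPM, by 0.46 (adjusted p 0.0289), a call that 7 of 17 alternatives lost, with an adjusted p of up to 0.218 without any Δ306 library in turn. The Δ225 library with the least Pbx2, replicate 1, is that with the highest mitochondrial share. Without replicates 1 and 2 the difference from Δ306 became −0.34 (adjusted p 0.0642).

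**Figure D4:**
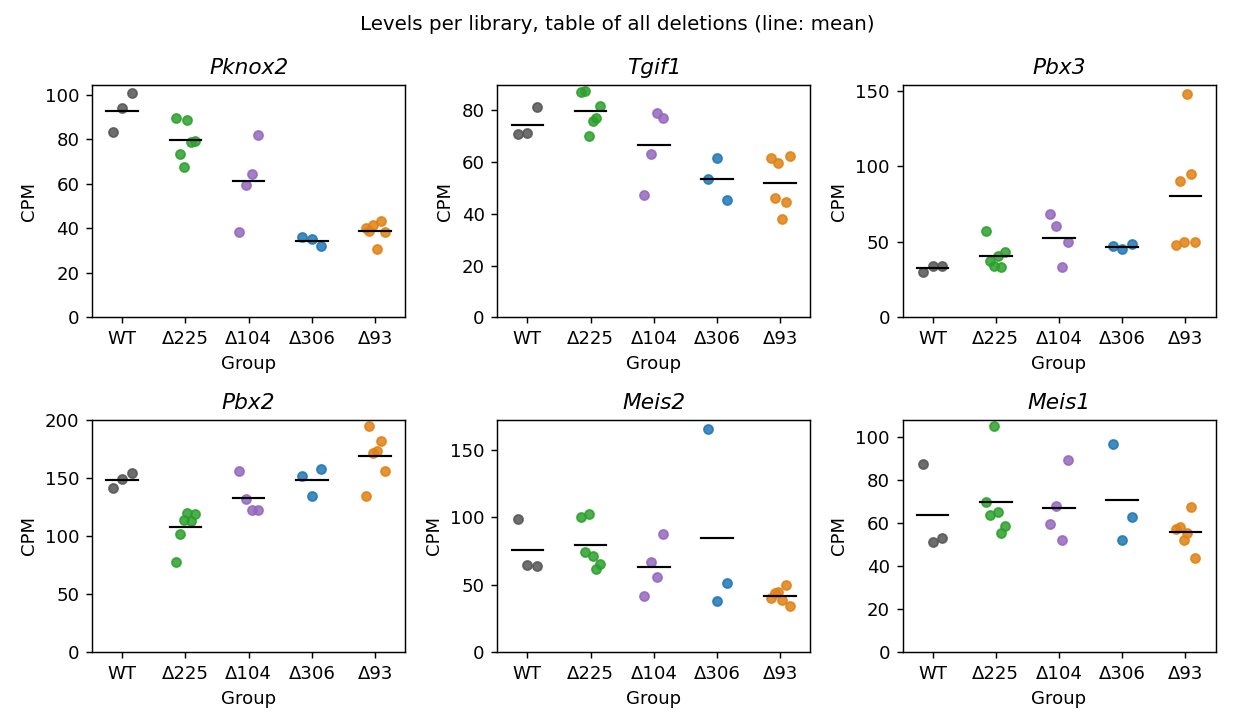
Level in CPM of Pknox2, Tgif1, Pbx3, Pbx2, Meis2 and Meis1 in each library of the table of all deletions, by group (WT n = 3, Δ225 n = 6, Δ104 n = 4, Δ306 n = 3, Δ93 n = 6), with a line at each mean. Pknox2 lies below 44 CPM in all Δ306 and Δ93 libraries and above 67 CPM in all WT and Δ225 libraries, while Meis1 overlaps between all groups.

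Pbx4 and Pknox1 were not called by edgeR in any deletion against WT. Pbx4 was at 1.54, 1.70 and 1.48 CPM in Δ306, from 35 to 57 reads, above the 0.62 to 0.92 CPM of WT (difference 0.96, SE 0.32, adjusted p 0.0704; DESeq2 adjusted p 0.0162). In the other deletions its differences from WT were 0.22 to 0.43, with none called. Between Δ225 and Δ306 the Pbx4 difference was −0.74 (adjusted p 0.0707 by edgeR and 0.0325 by DESeq2). Pknox1 was at 46.22 to 49.32 CPM in WT, 36.67 to 44.06 CPM in Δ306 and 37.28 to 44.91 CPM in Δ93. Both groups lay below WT without a call (differences −0.26 and −0.20, adjusted p 0.457 and 0.448).

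The MEIS genes themselves were not called in any deletion against WT. Meis1 was at 87.59, 51.49 and 53.02 CPM in WT, 97.02, 52.26 and 62.91 CPM in Δ306, and 59.7, 68.17, 89.36 and 52.05 CPM in Δ104. It ranged from 43.61 to 67.48 CPM in Δ93 (median 56.26) and from 55.33 to 105.1 CPM in Δ225 (median 64.51). All groups overlapped, and the differences from WT ran from −0.20 in Δ93 to 0.14 in Δ306, with adjusted p of at least 0.613. The interval of the Δ93 difference was −0.67 to 0.27.

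Meis2 was at 99.07, 64.55 and 63.78 CPM in WT and at 40.36, 43.73, 44.51, 39.05, 49.64 and 34.27 CPM in Δ93. Every Δ93 library was below every WT library. The difference of −0.85 (SE 0.32, adjusted p 0.0761) was called only where the 2 groups were fitted alone (−0.86, adjusted p 0.00561). Δ225, at 61.73 to 102.2 CPM (median 72.8) with the highest value in the library labelled replicate 3, was higher than Δ93 by 0.92 (SE 0.27, adjusted p 0.0197), which missed the threshold without Δ225 replicate 3 (adjusted p 0.0508) and without Δ225 replicates 1 and 2 (0.83, adjusted p 0.0655). Δ306 was divided, with 165.9 CPM in replicate 1 and 38.22 and 51.11 CPM in the others. That library decides the comparison of Δ225 with Δ306, which was −0.10 (adjusted p 0.871) with it and 0.83 (adjusted p 0.0436) without it. Against WT, Meis2 in Δ306 differed by 0.17 (SE 0.38, adjusted p 0.842). The alternatives ran from −0.80 to 0.47, with none called. Δ306 replicates 2 and 3 were below every WT library, and replicate 1 was above every WT library. In Δ104, Meis2 was at 41.99 to 87.38 CPM (difference from WT −0.26, adjusted p 0.723). Meis3 was at 12.98 to 21.08 CPM in WT and at 9.01 to 21.25 CPM in Δ93, and its differences from WT ran from −0.57 in Δ225 (adjusted p 0.384) to −0.096 in Δ93. Δ225 replicates 1 and 2 had the least Meis3, 3.71 and 5.64 CPM, and the other Δ225 libraries 13.55 to 14.3 CPM.

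The highest Meis1 and Meis2 of each group in the deletion table fell together with the lowest germ cell sum, a pattern looked for only after the values had been seen. In 5 of 5 groups of the deletion table the library with the lowest germ cell sum was that with the most Meis1 and the most Meis2. These libraries were WT replicate 1 (germ cell sum 13.92 CPM, Meis1 87.59 CPM), Δ104 replicate 3 (152 and 89.36), Δ225 replicate 3 (358.3 and 105.1), Δ306 replicate 1 (366.8 and 97.02) and Δ93 replicate 5 (541.7 and 67.48). In Meis1 KO the pattern did not hold for Meis2: replicate 1 had the lowest germ cell sum (285.7 CPM) with 93.59 CPM of Meis2, and replicate 3 (342.1 CPM) had the most, 103.3 CPM. Over all genes tested in the deletion table, 184 of 22941 (0.802%) were highest in those same 5 libraries. Among the other members this held in 3 of 5 groups for Meis3 and Pknox2, and in 0 of 5 for Pbx2, Pbx3 and Tgif1. The rest of the spread did not always follow. Δ225 replicate 1 had the highest germ cell sum of its group (1223 CPM), with 69.76 CPM of Meis1 and 100 CPM of Meis2. Both values were next below the highest of that group. Whether germ cell content has a part in the MEIS levels was not tested.

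Direct comparisons of the deletions by edgeR gave member calls only where Δ225 was set against Δ93 or Δ306. Against Δ93, 5 of 9 members were called (Meis2, Pknox2 and Tgif1 higher in Δ225, Pbx2 and Pbx3 lower), beside 20.8% of all genes tested. Against Δ306, 3 members were called (Pknox2 and Tgif1 higher, Pbx2 lower), beside 13.2%. Against Δ104, edgeR called 0 members, beside 0.645% of genes. The other pairs also had 0 members called by edgeR: Δ104 against Δ306 (0.0654% of genes), Δ93 against Δ306 (0.0785%) and Δ93 against Δ104 (0.0523%). In these 4 comparisons with 0 calls, 2, 2, 2 and 4 members had an unadjusted p under 0.05, and DESeq2 called 0, 1, 0 and 1. The comparisons share libraries and are not independent.

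The same 2 lists were read in the deletions. Over all genes tested, 6.43% were called in Δ306, 14.1% in Δ93, 0.209% in Δ225 and 0.0610% in Δ104, all against WT. For Δ225 the share was 20.8% against Δ93, 13.2% against Δ306 and 0.645% against Δ104. Of the 10 other TALE genes, 2 were called higher in Δ306, Irx3 (98.29 CPM against 3.30 in WT, log2 fold change 4.90, SE 0.97, adjusted p 0.00712) and Irx5 (12.66 against 0.85 CPM, 3.89, adjusted p 0.0175). Irx3 and Irx5 are Iroquois genes known from granulosa cells of the ovary. In Δ93, 3 were called higher, Irx3 (137.1 CPM, 5.38, adjusted p 0.0015), Irx5 (16.08 CPM, 4.24, adjusted p 0.00435) and Irx2 (3.59 CPM, 2.31, adjusted p 0.0131). Mkx, a tendon regulator, was called lower there (3.84 against 9.25 CPM, −1.27, adjusted p 0.0258). In Δ225 and Δ104 none of the 10 was called against WT, at medians of −0.50 and 0.59. Against Δ93, Δ225 had 2 called higher and 4 lower, the latter being Irx3 (−6.33), Irx5 (−4.95), Irx4 (−3.65) and Irx2 (−1.69). Irx4 was low everywhere, with means of 0.057 CPM in Δ225, 0.80 CPM in Δ93 and 0.87 CPM in Δ306. Δ225 also had less Irx3 (−5.85, adjusted p 2.62e-04), Irx5 (−4.61) and Irx4 (−3.77) than Δ306, with 4 of the list called lower, and less Irx3 (−4.72) and Irx5 (−3.67) than Δ104. The pre-granulosa sum is high in the same deletions as Irx3 and Irx5, and its part was not tested.

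Among the 10 HOX genes, 6 were called lower in Δ93 against WT, where 14.1% of all genes tested were called. Those with the largest decreases were Hoxc11 (−4.81, adjusted p 0.00814), Hoxa11 (−3.26, adjusted p 0.0493), Hoxa10 (−2.62, adjusted p 0.0159) and Hoxc10 (−1.36, adjusted p 0.0169), genes that pattern the posterior urogenital tract. The Δ93 and WT libraries overlapped for each of these. They did not overlap for the other called genes, Hoxd9 (59.38 against 127.3 CPM, −1.10, adjusted p 0.00932) and Hoxd10 (12.19 against 21.97 CPM, −0.85, adjusted p 0.0119), which were named after their values had been seen. Hoxc11 and Hoxa11 were low everywhere, with WT means of 1.097 and 1.856 CPM. In Δ306, 1 was called, Hoxd9 (56.3 against 127.3 CPM, −1.18, adjusted p 0.0334), beside 6.43% of all genes. In Δ225 and Δ104 none was called. The list medians were −1.23 in Δ93, 0.098 in Δ306, −0.90 in Δ225 and −0.54 in Δ104, where the medians over all genes were between 0.044 and 0.080. Δ225 had 4 of the list lower and 1 higher than Δ306, beside 13.2% of all genes. It had 1 higher than Δ93, Hoxd10 (0.96, adjusted p 8.93e-04), beside 20.8%.

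The genes most like Meis1 over the 22 libraries of the deletion table, among 11701 ranked, were Ror1, a receptor of WNT5A (Pearson r 0.917, Spearman rho 0.839 on log2 CPM), Sema3d, a secreted semaphorin (0.851 and 0.779), and F13a1, a coagulation factor subunit (0.840 and 0.794). Those most like Meis2 were Nav3, a neuron navigator (0.946 and 0.921), Foxp2, a forkhead factor (0.923 and 0.903), and the mechanosensitive channel gene Piezo2 (0.920 and 0.903). The points share libraries, group differences and cell composition, so these values are a description only. Meis1 and Meis2 had an r of 0.811 with each other, and Meis1 and Meis3 0.038. Pknox2 and Tgif1 had an r of 0.855, and each had a negative r with Pbx2 (−0.611 and −0.781) and Pbx3 (−0.617 and −0.775).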

How the data were processed

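Poly(A) RNA of XY gonads was sequenced in 26 stranded libraries, per the labels' protocols. The values the authors deposited are raw counts for each gene, in a table of WT and Meis1 KO and in a table of WT and the 4 deletions. The submitters' processing notes name STAR 2.7.10a, featureCounts (Subread) and DESeq2 for WT and Δ306, STAR and DESeq2 for the later samples, and the build mm10. The annotation, the read length and whether counting used strand are not given in the sources used here, so reads of overlapping antisense genes may be included. An earlier deposited count table of WT and Δ306 served as an alternative. At 31053 of 31053 genes its WT counts are those of the Meis1 table, and the deletion table was counted anew.

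Tests on the counts used edgeR 4.0.16 under R 4.3.3 (filterByExpr, TMM, quasi-likelihood F-test, Benjamini-Hochberg over all genes tested, called at an adjusted p under 0.05). Meis1 KO was fitted with WT alone (16791 genes, with 5 residual degrees of freedom), and the deletions in 1 fit of 22 libraries (22941 genes, 17 residual degrees of freedom), which made 11 comparisons. Standard errors are the unshrunk estimate over the square root of F, and intervals are at 95%. CPM used TMM-scaled library sizes, and levels per length the union of exons in GENCODE M21 on GRCm38. Coding sequences came from GENCODE M21 and were aligned with Biopython 1.88. On simulated counts, 100 genes were changed by each size and all others were left unchanged. In the design of Meis1 KO against WT (16562 genes), the test recovered 74 genes changed by 1 log2 unit and 93 changed by 2. In that of Δ93 against WT (22338 genes) it recovered 41 and 78. Of the unchanged genes, 13 and 5 were called in these designs. Changes as small as those of the paralogues in Meis1 KO were not simulated.

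Samples were grouped by the genotype in their labels. The 9 members and the lists were chosen with earlier results of these data known. The text names all members, the called genes of the 2 lists (at most the 4 with the largest change per list and comparison), and the 3 genes most correlated with Meis1 and with Meis2 among those with a mean of at least 5 CPM. Correlations between members and the germ cell pattern were added after the values had been seen. A few genes that these rules would name are left out of this text. The alternatives were DESeq2 1.42.0, RLE factors, no composition factor, no filter, an adjusted p under 0.01, a replicate block, other sets of libraries in the fit, and each replicate left out. Leaving out Δ225 libraries 1 and 2 together was chosen after seeing the data.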

Additional observations from a re-analysis of the deposited data

Results flagged for a closer look

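In groups of 4 or more libraries, 2 of 36 sets of values held a library that stood far from the others, and chance alone flags about 1 in 20 such sets. Meis1 in Δ225 replicate 3 was at 105.1 CPM, where the next highest library had 69.76 CPM. Pknox1 in Δ225 replicate 1 was at 24.59 CPM, where the next lowest library had 45.95 CPM. That library has 11.58 M counts, the fewest of all, and a mitochondrial share of 11.61%. Without it, Pknox1 was called higher in Δ225 than in Δ93 (0.25, adjusted p 0.0377), against 0.10 (adjusted p 0.614) with it.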

How the results depend on the processing

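Each member's difference was recomputed under 36 settings. Of 1593 values 1549 kept their side of the threshold, 29 lost a call, 14 gained 1 and 1 reversed. A change of sign was counted as a reversal only where the main or the alternative value was called. Differences without a call could change sign and still count as kept, such as Meis3 in Meis1 KO against WT (−0.32 to 0.072). The reversed value was Meis2 in Δ225 against Δ306, −0.10 with all libraries and 0.83 without Δ306 replicate 1. Leaving out each replicate in turn gave it a range of −0.43 to 0.83. The members called in Δ306 against WT went from 1 to 2 with DESeq2, with only the 2 groups fitted and in the first count table. In Δ225 against WT they went from 0 to 1 with DESeq2, and in Δ104 against Δ306 and Δ93 against Δ104 from 0 to 1 with DESeq2. In Δ225 against Δ306 they went from 3 to 1 at an adjusted p under 0.01, with no low-count filter, and with Δ225 libraries 1 and 2 both left out. The cause was not tested.

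With each replicate left out in turn, the members called were 1 in Meis1 KO, 1 in Δ306 and 0 in Δ225 and Δ104 each time, and 1 to 3 in Δ93, all against WT. They were 4 to 6 in Δ225 against Δ93, 1 to 4 in Δ225 against Δ306, 0 to 1 in Δ104 against Δ306, 0 to 1 in Δ93 against Δ104 and 0 in the other pairs.

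Over all genes, the counts in Meis1 KO were 1408 with DESeq2, 16 at an adjusted p under 0.01 and 32 with a replicate block, against 303. Against WT, DESeq2 called 2616 genes in Δ306, 781 in Δ225 and 591 in Δ104, where edgeR called 1474, 48 and 14. Leaving out single libraries gave 205 to 1310 genes in Δ306, 5 to 122 in Δ225, 1 to 528 in Δ104 and 1486 to 3572 in Δ93 (3229 with all). With an adjusted p under 0.01 there were 259, 9, 3 and 1234, and with the block 1292, 1638, 470 and 3346. Same-numbered libraries were taken as paired only where the deviations of every pair correlated above 0.1. No comparison met this. The lowest correlation of a pair was between −0.31 and 0.071, and all pairs were positive in Δ306 against WT (from 0.047), Δ225 against Δ104 (from 0.071) and Δ93 against Δ104 (from 0.030). The replicate block gave 1 member called in Meis1 KO against WT, 2 in Δ93 against WT in place of 3, and 2 in Δ225 against Δ306 in place of 3. In Meis1 KO against WT, 2 of 3 libraries correlated best with their own number. Intervals at Pbx4 are limited by reads per library, 9 at the fewest.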
